A study of Mus musculus with 16 samples.

Results

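The interferon-induced guanylate binding proteins and immunity-related GTPases were followed in the skin wounds of WT and db/db mice through 10 genes, Gbp2, Gbp3, Gbp5, Gbp6, Gbp7, Irgm1, Irgm2, Igtp, Iigp1 and Tgtp1. Their probes were those whose transcript accession in the scanner files belonged to one of these symbols in RefSeq, with no use of how the probes behaved. This gave 13 probes for the 10 genes, of 39429 probes and 20832 symbols on the array, with 2 probes each for Gbp6, Irgm1 and Iigp1. All 13 probes were well above background on all 16 arrays. RNA came from homogenates of the whole wound with the intact skin around it, 4 mm across when made, in female mice. The WT group consisted of C57BL/6J mice aged 10 to 12 weeks, with no treatment. The other groups were db/db mice aged 10 weeks on the C57BLKS/J background, homozygous for the db mutation of the leptin receptor gene, obese and diabetic. Genotype and strain therefore cannot be told apart in any comparison with WT. The db/db group received nothing, estradiol benzoate in sesame oil was put on the wounds of the db/db + estrogen group each day (0.75 μg/g/day), and the wounds of the db/db + vehicle group got sesame oil without it. Arrays were labelled day 7 (D7) or day 14 (D14) after wounding, with 2 arrays of each of the 4 groups under either label, and the sources used here do not say whether the 2 arrays came from separate mice, so p-values measure the spread between these samples.

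Both families are large GTPases that cells make after interferon has bound its receptor, most strongly in response to interferon γ, which T cells and natural killer cells secrete. Guanylate binding proteins assemble on vacuoles and bacteria in the cytosol and help inflammasomes form. Among the immunity-related GTPases, Iigp1 and Tgtp1 load onto the membranes of parasite vacuoles, whereas Irgm1, Irgm2 and Igtp sit on the cell's own membranes and hold these effectors inactive there. In skin, keratinocytes, macrophages, fibroblasts and endothelial cells can all express them once interferon is present.

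The promoters of these genes are known to carry elements read by the factors downstream of the interferon receptors, and the sequences just upstream of the start sites are shown because the members moved together across the groups. RefSeq windows of 300 bases (250 before the start and 50 after it, build GRCm38.p6) were found for 8 of the 10 genes, with none for Gbp6 and Iigp1. The letters GAAANNGAAA, on either strand, resemble the interferon-stimulated response element, and TTCNNNGAA, which reads alike on both strands, resembles the interferon γ-activated site. GAAANNGAAA occurred in the windows of 8 of the 8 genes, against 3.44% of the 32851 windows in RefSeq, and a further start site listed for Gbp3 lacked it. TTCNNNGAA occurred for 5 of the 8 genes (Gbp5, Gbp7, Irgm2, Igtp and Tgtp1) against 8.3% of all windows, and both occurred for the same 5 genes against 0.454%. Windows were also found for 5 of the other interferon-induced GTPases listed below. Of these 5, 3 had GAAANNGAAA, 2 had TTCNNNGAA and 2 had both. The stretches directly before the start site of 6 genes are printed 5′ to 3′ in the direction of transcription, with these letters in capitals. Those of Gbp2 and Gbp7 show the response element on the opposite strand, as TTTCNNTTTC, those of Irgm1 show a pair of overlapping matches, and those of Irgm2, Igtp and Tgtp1 show an arrangement that the 3 genes share.
Gbp2, chr3:142620563-142620662, plus strand: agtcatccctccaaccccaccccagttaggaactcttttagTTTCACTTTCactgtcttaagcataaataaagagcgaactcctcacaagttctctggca
Gbp7, chr3:142530220-142530335, plus strand: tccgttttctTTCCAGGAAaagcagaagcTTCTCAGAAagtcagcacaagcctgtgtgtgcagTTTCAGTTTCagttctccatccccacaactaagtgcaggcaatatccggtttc
Irgm1, chr11:48871421-48871520, minus strand: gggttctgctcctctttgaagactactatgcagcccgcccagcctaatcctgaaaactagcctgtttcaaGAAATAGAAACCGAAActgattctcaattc
Irgm2, chr11:58214877-58214976, plus strand: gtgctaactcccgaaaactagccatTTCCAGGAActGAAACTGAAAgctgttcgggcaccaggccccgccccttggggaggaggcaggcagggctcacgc
Igtp, chr11:58199456-58199555, plus strand: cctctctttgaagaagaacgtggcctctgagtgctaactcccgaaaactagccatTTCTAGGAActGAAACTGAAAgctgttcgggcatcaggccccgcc
Tgtp1, chr11:48992247-48992346, minus strand: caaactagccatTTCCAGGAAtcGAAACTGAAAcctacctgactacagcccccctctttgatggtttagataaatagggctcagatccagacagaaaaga
The response element began 59 bases before the start in Gbp2, 53 in Gbp7, 64 in Irgm2, 34 in Igtp and 77 in Tgtp1, and the overlapping matches in Irgm1 began 30 and 24 bases before it. In Irgm2, Igtp and Tgtp1 the letters TTCNNNGAA began 11 bases ahead of the response element, at 75, 45 and 88 bases before the start. In Gbp7 they stood at 106 and 87 bases. Gbp3, which is not printed, had overlapping matches to the response element 45 and 39 bases before its start, and Gbp5 had one at 165 bases with TTCNNNGAA at 245 and 52. A match describes the letters of the window and is not a measured binding site.

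Signals were scaled within each array, and a level is the log2 of the signal minus the log2 of the array's 75th percentile, so that 0 is that percentile and 1 unit is a doubling. Levels of different probes were not set against each other. This percentile ran from 1090.9 to 2548.4 over the arrays and was lowest for WT D14 replicate 2, and between 70.1% and 79.0% of probes were well above background. At D7 it was 1204.4 and 1404.2 in WT (replicates 1 and 2), 2318.1 and 1824.1 in db/db, 1400.8 and 1917.9 with estrogen and 2072.1 and 1787.2 with vehicle. The divisor thus differed between groups, and fold changes depend on this scaling. Defining skin markers were present, since 9 of 9 keratinocyte markers and 7 of 7 fibroblast markers were well above background on every array. limma was fitted to all arrays as 8 group means. A probe was called where its unadjusted two-sided p was under 0.05 and its fold change over 2, and the adjusted p values given are Benjamini-Hochberg values from limma over all probes tested in that comparison. The SE of a log2 fold change is that of the probe and the same in each comparison of 2 groups. With 2 arrays in each group an exact permutation test cannot go below p = 0.333, so that all tests rest on the spread shared by the 8 groups. The D7 arrays lay on slides 1 and 2, with replicate 1 of every group on the former and replicate 2 on the latter. Slide 3 held both db/db D14 arrays and replicate 1 of the treated groups, and slide 4 held both WT D14 arrays and replicate 2 of the treated groups. Scan and labelled day cannot be told apart, since D7 and D14 arrays were scanned at separate times. Fold changes of single genes printed in the study's tables were found on arrays of the other labelled day, so arrays are named by their labels and no course over time is read from them.

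In the db/db group, all 10 genes had lower means than in the WT group on both labelled days, and 9 of the 10 were called lower at D7 and 7 of the 10 at D14. Over all probes tested, 8.42% were called lower at D7 and 15.6% at D14. After adjustment, the members called were again 9 and 7, where 9.07% and 13.6% of all probes were called in either direction. Gbp2 had the largest fold change on both labelled days, and the immunity-related GTPases Irgm1, Irgm2, Igtp and Iigp1 were called on both. The median log2 fold change over the 10 genes was -1.84 at D7 and -1.76 at D14, where the medians of all probes tested were -0.05 and -0.12. In 9 of the 10 genes on each labelled day both db/db arrays lay below both WT arrays, whereas 31.8% and 40.3% of all probes were arranged in this way. In bulk samples, fewer cells that express a gene and less of its RNA per cell cannot be told apart.

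Among the guanylate binding proteins, Gbp2, which is recruited to pathogen vacuoles, stood at 2.58 and 2.02 in the WT group (replicates 1 and 2, as in every pair of values) and at -1.85 and -1.76 in the db/db group at D7. At D14 it stood at 1.25 and 2.07 in WT and at -1.58 and -1.68 in db/db. The db/db arrays were thus close to each other and far below WT on both labelled days, with a level 17.2-fold lower at D7 (log2 fold change -4.10, SE 0.37, limma adjusted p = 0.000285) and 9.77-fold lower at D14 (-3.29, adjusted p = 0.000643). Gbp5, known for promoting inflammasome assembly, stood at -0.19 and -1.32 in WT and at -2.82 and -3.04 in db/db at D7, and at -1.32 and -0.06 against -3.24 and -3.20 at D14. The WT arrays differed from each other by more than the db/db arrays did, but the groups did not overlap, and Gbp5 was 4.52-fold lower (-2.18, SE 0.47, limma adjusted p = 0.0165) and then 5.80-fold lower (-2.54, adjusted p = 0.00673). Gbp7 stood at -1.44 and -1.93 in WT and at -3.17 and -3.91 in db/db at D7, and at -1.99 and -1.41 against -3.35 and -3.26 at D14. It was 3.61-fold lower (-1.85, SE 0.29, limma adjusted p = 0.00433) and 3.05-fold lower (-1.61, adjusted p = 0.0059), again without overlap.

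Gbp3 and Gbp6 were the members of this family without a call on both days. Gbp3 stood at 1.18 and 1.20 in WT and at -0.05 and -0.37 in db/db at D7, a 2.64-fold lower level (log2 fold change -1.40, SE 0.32, limma adjusted p = 0.0219). At D14 the WT arrays lay apart, at 0.38 and 1.51, the db/db arrays at 0.42 and 0.29 fell around the lower of them, and the difference of -0.59 was not called (adjusted p = 0.229). Before scaling, these WT signals were 3101 and 3103, on arrays with 75th percentiles of 2382.6 and 1090.9. The brighter probe of Gbp6 was the least even within groups, at 2.07 and 0.69 in WT and -1.18 and 1.61 in db/db at D7, so that the groups overlapped and the difference of -1.17 (SE 0.99, limma adjusted p = 0.468) was not called. Its direction rested on a single array, since it was 0.23 without db/db replicate 1. At D14 this probe stood at -1.88 and 0.98 in WT and at -2.23 and -2.23 in db/db (-1.78, limma adjusted p = 0.231). The dimmer probe of Gbp6 gave a less uneven picture, at -1.50 and -1.83 in WT against -3.50 and -3.09 in db/db at D7 (-1.63, SE 0.53, limma adjusted p = 0.0695) and at -2.98 and -1.17 against -3.94 and -4.25 at D14 (-2.02, adjusted p = 0.0261). It passed the unadjusted call on both labelled days, so the probes of Gbp6 disagreed, and the signal of a Gbp6 probe may include its near-identical neighbours such as Gbp10.

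Among the immunity-related GTPases, the regulatory Irgm2 showed the largest change of this family by the brighter probes on both labelled days. It stood at 1.54 and 1.20 in WT and at -1.19 and -1.06 in db/db at D7, and at 0.82 and 2.07 against -0.74 and -1.04 at D14. All db/db arrays were thus at or below -0.74 while all WT arrays were at or above 0.82, and Irgm2 was 5.65-fold lower (log2 fold change -2.50, SE 0.39, limma adjusted p = 0.00424) and 5.06-fold lower (-2.34, adjusted p = 0.00415). Igtp, also regulatory, stood at 2.27 and 1.83 in WT and at 0.06 and 0.17 in db/db at D7, and at 1.18 and 2.27 against 0.06 and -0.09 at D14. The groups did not overlap, and Igtp was 3.83-fold lower (-1.94, SE 0.42, limma adjusted p = 0.0168) and 3.34-fold lower (-1.74, adjusted p = 0.0194). The brighter probe of Irgm1, which is needed for autophagy and for keeping the effectors off host membranes, stood at 1.78 and 1.34 in WT and 0.32 and 0.35 in db/db at D7, and at 1.17 and 1.93 against 0.46 and 0.36 at D14. Irgm1 was 2.34-fold lower (-1.22, SE 0.35, limma adjusted p = 0.0476) and 2.20-fold lower (-1.14, adjusted p = 0.0476), close to the thresholds, and its dimmer probe was called at D7 (-1.21) and not at D14 (-0.90). The brighter probe's call at D14 leaned on WT replicate 2, since WT replicate 1 at 1.17 lay less than 1 unit above both db/db arrays.

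Of the effector GTPases, Iigp1 stood at 0.45 and 0.05 in WT and at -1.76 and -1.39 in db/db at D7 by its brighter probe, and at -0.58 and 0.50 against -2.10 and -1.98 at D14. The groups were well apart, and Iigp1 was 3.55-fold lower (log2 fold change -1.83, SE 0.38, limma adjusted p = 0.0148) and 3.999-fold lower (-1.9996, adjusted p = 0.00767). The dimmer probe moved the same way and further, by 7.50-fold (-2.91, SE 0.47, limma adjusted p = 0.0053) and 4.79-fold (-2.26, adjusted p = 0.0112). Tgtp1 was among the dimmer probes and stood at -4.16 and -4.21 in WT and at -5.73 and -6.13 in db/db at D7 (3.34-fold lower, log2 fold change -1.74, SE 0.31, limma adjusted p = 0.00776). At D14 its values were -4.47 and -4.25 in WT and -5.56 and -5.07 in db/db, which did not overlap but fell short of 2-fold (1.94-fold, adjusted p = 0.0557). Tgtp1 and Tgtp2 are near-identical copies, so signal of the one may include the other.

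**Figure D1:**
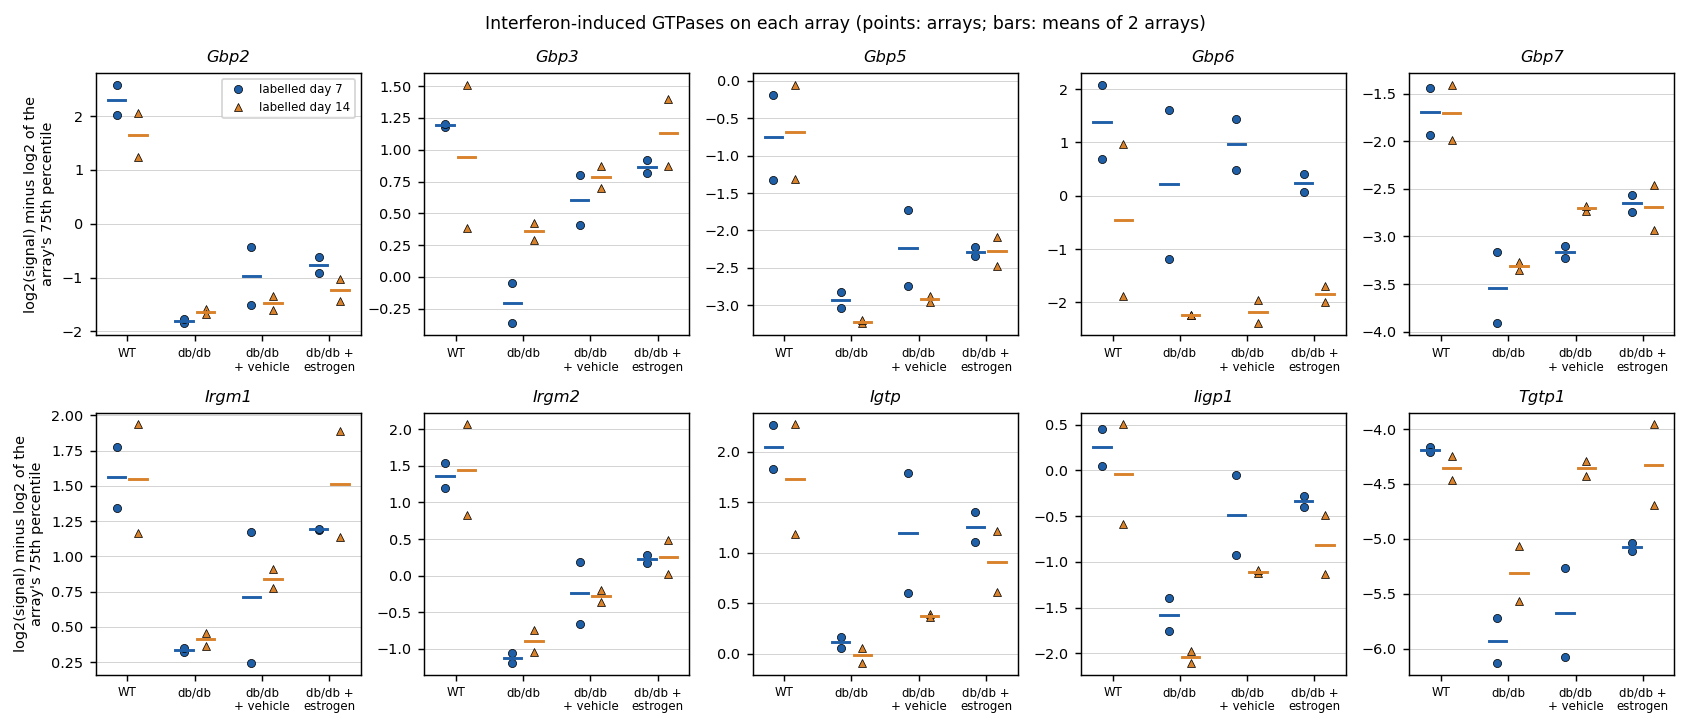
Levels of the 10 genes on each of the 16 arrays (vertical axis, log2 of the signal minus log2 of the array's 75th percentile, by the brighter probe) for the 4 groups (horizontal axis) and the 2 labelled days; points are arrays and bars are the means of 2 arrays. Gbp2 shows the widest gap, with the WT arrays labelled day 7 at 2.58 and 2.02 and every db/db array, treated or not, at or below -0.43.

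Slides gave the same direction where they could be read. Within slide 1, all 10 genes were lower in db/db than in WT at D7, with a median difference of -2.21, and within slide 2, 9 of 10 were lower, with a median of -1.69. No slide held D14 arrays of both WT and db/db.

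Cell type markers were read beside this comparison. Of 9 keratinocyte markers, 9 had lower means in db/db than in WT at D7 (median log2 fold change -0.93, 2 called, both also after adjustment) and 7 at D14 (median -0.74, 1 called, also after adjustment), which is the direction of the members. Their summed linear scaled signal ranged from 593 to 617 in WT and from 269.5 to 455.44 in db/db at D7, without overlap, and from 392 to 664 and from 339 to 502 at D14, where the groups overlapped. Of 8 endothelial markers, 8 had lower means in db/db at D7 and 6 had higher means at D14, with 0 called by limma on either day. Of 7 fibroblast markers, 5 had lower means in db/db at D7 (median log2 fold change -0.31), while 1 was called higher, also after adjustment. At D14, 4 of 7 had lower means (median -0.38), with 0 called. Their sums ranged from 881 to 994 in WT and from 749 to 760 in db/db at D7, without overlap. At D14 the sums ranged from 700 to 1089 and from 658 to 728, where the groups overlapped. Of 15 markers of T cells and natural killer cells, the cells that secrete interferon γ, 14 were tested at D7 and 6 were called lower in db/db than in WT (1 after adjustment), with 3 of 14 lower at D14 (1 after adjustment). The sums of the T cell and natural killer cell markers ranged from 7.75 to 11.5 in WT and from 7.07 to 7.33 in db/db at D7, and from 6.32 to 8.42 in WT and from 5.999 to 6.29 in db/db at D14. Between 11 and 15 of these markers were well above background on each array, the Cd3 genes and Cd4 on all 16, and Ncr1 on 12 and Cd8a on 10 of the 16. Macrophage markers ran the other way, with 7 of 11 called higher in db/db at D7 and 5 of 11 at D14. Of all probes tested, 5.67% and 2.35% were called higher. Macrophage sums were 76.9 to 125 in WT against 207 to 222 in db/db at D7, and 69.2 to 112 against 153 to 165 at D14. Members were lower and most macrophage markers higher in db/db, which does not show which cells the members' RNA came from. Of 9 neutrophil markers, 6 were called higher in db/db at D7, and 3 were called higher and 1 lower at D14. Their sums were 351 to 392 in WT against 423 to 501 in db/db at D7, and 356 to 495 against 267 to 297 at D14. The part of these cells in the members' levels was not tested.

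In the db/db + estrogen group, every one of the 10 genes had a higher mean than in the db/db group on both labelled days, by 1.02-fold to 2.55-fold at D7 and by 1.31-fold to 2.34-fold at D14. At D7, 5 of 10 were called higher (Gbp2, Gbp3, Irgm2, Igtp and Iigp1), where 5.22% of all probes tested were called higher, and at D14, 3 of 10 were called (Irgm1, Irgm2 and Iigp1), where 2.56% were. After adjustment, limma called 0 of the 10 on either day by these probes, against 2.22% and 0.0956% of all probes called higher. The median log2 fold change was 0.96 at D7 and 0.93 at D14, where all probes tested had medians of 0.04 and 0.05. Both estrogen arrays lay above both db/db arrays for 9 of 10 genes at D7, an arrangement found for 29.9% of all probes, and for 10 of 10 at D14, against 27.5%. The counts moved with single arrays, to 3 without db/db replicate 2 or without estrogen replicate 2 at D7, and to 5 without estrogen replicate 1 and 1 without estrogen replicate 2 at D14.

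Irgm2 had the largest fold change at D7 among these probes. With estrogen it stood at 0.17 and 0.28 at D7 and at 0.02 and 0.48 at D14, above the untreated db/db arrays, the highest of which was -0.74, and below all WT arrays. It was 2.55-fold higher than in db/db at D7 (log2 fold change 1.35, SE 0.39, limma adjusted p = 0.0741) and 2.21-fold higher at D14 (1.15, adjusted p = 0.392). Iigp1 stood at -0.40 and -0.28 at D7 and at -1.14 and -0.49 at D14, and was 2.36-fold (1.24, SE 0.38, limma adjusted p = 0.0948) and 2.34-fold higher (1.23, adjusted p = 0.338). Its dimmer probe rose from -3.87 and -4.23 in db/db to -1.82 and -1.60 with estrogen at D7, and this 5.06-fold rise (log2 fold change 2.34, 95% interval 1.28 to 3.40) was the single member probe of the 13 that passed adjustment in this comparison (limma adjusted p = 0.0203). At D14 the dimmer probe stood at -2.80 and -2.05 with estrogen and was 2.57-fold higher (1.36), so the probes of Iigp1 shared the direction and differed in size. Igtp stood at 1.103 and 1.40 at D7 and at 0.61 and 1.21 at D14, and was 2.20-fold higher at D7 (1.14, limma adjusted p = 0.158) and 1.90-fold, without a call, at D14. Irgm1 stood at 1.19 and 1.20 at D7, a difference of 0.86 that was not called by this probe but was by the dimmer one (1.01, limma adjusted p = 0.118). At D14 Irgm1 stood at 1.13 and 1.89 and was 2.15-fold higher (1.101, limma adjusted p = 0.356). Tgtp1 stood at -5.04 and -5.12 at D7 and at -3.96 and -4.69 at D14, and its folds of 1.802 and 1.98 were not called.

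Among the guanylate binding proteins, Gbp3 stood at 0.92 and 0.82 with estrogen at D7, a 2.10-fold higher level than in db/db (log2 fold change 1.07, SE 0.32, limma adjusted p = 0.0887), and at 0.87 and 1.40 at D14 (0.78, not called). Gbp2 stood at -0.92 and -0.62 at D7, 2.05-fold higher (1.04, SE 0.37, limma adjusted p = 0.144), and at -1.43 and -1.02 at D14 (0.41, not called). These Gbp2 values were all below every WT array, the lowest of which was 1.25. Gbp5 stood at -2.22 and -2.34 and then at -2.47 and -2.09, with differences of 0.65 and 0.94 that were not called. Gbp7 stood at -2.74 and -2.56 and then at -2.93 and -2.46, with differences of 0.89 and 0.62 that were not called. The brighter probe of Gbp6 stood at 0.07 and 0.41 and then at -1.98 and -1.69, and its difference at D7 was 0.03 with db/db arrays on both sides, while its dimmer probe, at -2.07 and -1.75, was 2.62-fold higher (1.39, limma adjusted p = 0.172).

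**Figure D2:**
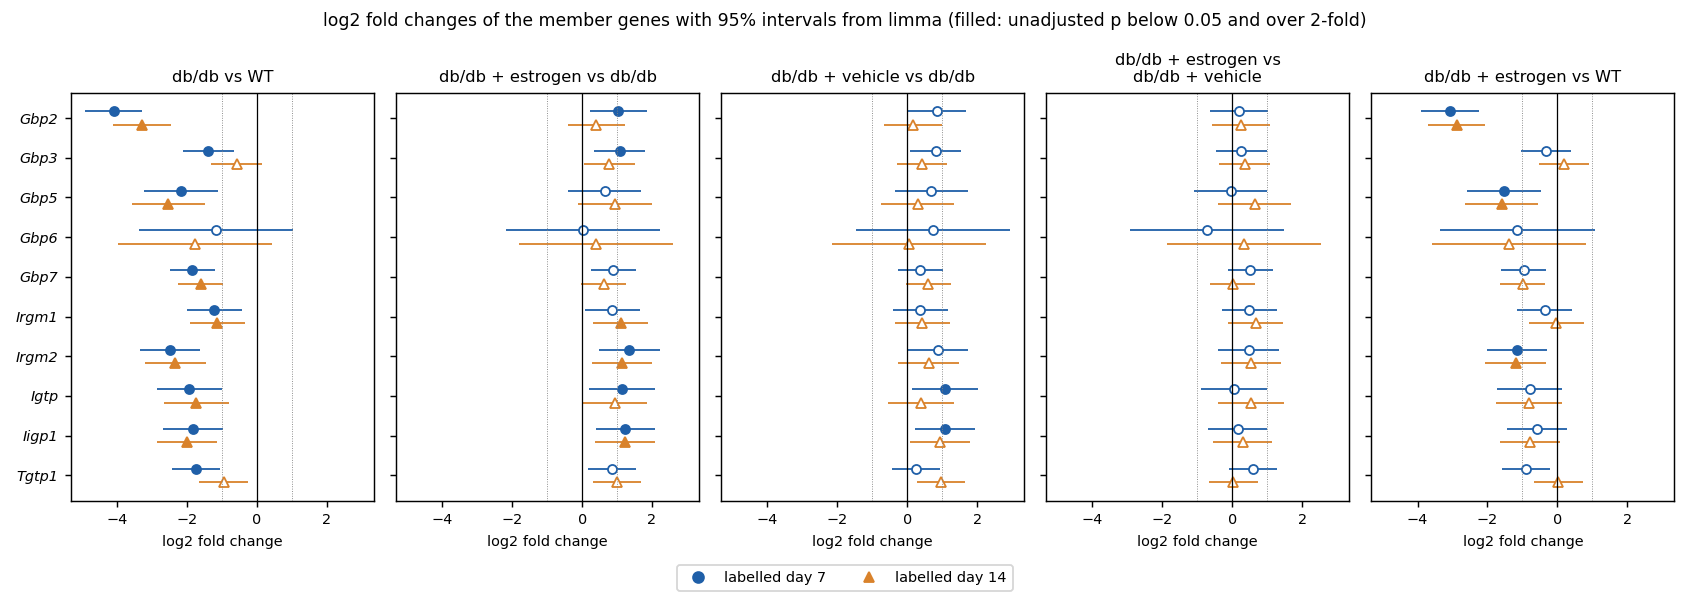
log2 fold changes of the 10 genes by the brighter probe (horizontal axis) with 95% intervals from limma, in 5 comparisons (panels) on the labelled days (colours); filled points passed the unadjusted p of 0.05 and 2-fold, and dotted lines mark 2-fold. All points lie left of 0 for db/db vs WT and right of 0 for db/db + estrogen vs db/db, and none is filled for db/db + estrogen vs db/db + vehicle.

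Within slides the direction was the same. At D7, all 10 genes were higher with estrogen than in db/db within slide 1 (median difference 0.947) and 9 of 10 within slide 2 (median 1.13). At D14, slide 3 held 1 estrogen array and both db/db arrays, and all 10 genes were higher there, with a median of 0.674. The sums of the T cell and natural killer cell markers ranged from 6.44 to 6.47 with estrogen at D7 and from 5.44 to 6.63 at D14, so they were not above those of db/db at D7, and 2 of these 15 markers were called higher and 1 lower. Macrophage sums with estrogen were 175 to 196.7 at D7, below the 207 to 222 of db/db. At D14 they were 176 to 199, above the 153 to 165 of db/db. Keratinocyte markers had higher means with estrogen than in db/db for 9 of 9 at D7 (median log2 fold change 0.77, 2 called, 0 after adjustment) and for 6 of 9 at D14 (median 0.38, 1 called, 0 after adjustment). Their sums were 499.7 to 658 with estrogen against 269.5 to 455.44 in db/db at D7, and 322 to 671 against 339 to 502 at D14, so that they overlapped only at D14. The sums of 9 neutrophil markers fell apart from db/db at D7, at 50.9 to 65.5 with estrogen against 423 to 501, with 8 of 9 called lower. At D14 they lay above db/db, at 324 to 356 against 267 to 297, while 2 of 9 were called lower. Of all probes tested, 4.71% and 1.36% were called lower. The part of these cells in the members' levels was not tested.

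Sesame oil alone also gave higher means than no treatment for all 10 genes on both labelled days, with fewer calls. In the db/db + vehicle group, Igtp and Iigp1 were called higher than in db/db at D7, that is 2 of 10 where 2.52% of all probes were called higher, and 0 of 10 were called at D14, where 5.31% were. By limma's adjusted p, 0 of 10 were called on either day, against 0.0369% and 0.138% of all probes called higher. The medians were 0.78 and 0.43, where all probes had 0.05 and 0.06. Both vehicle arrays lay above both db/db arrays for 6 of 10 genes at D7, where 22.3% of all probes did so, and for 8 of 10 at D14, where 38.3% did so. Keratinocyte markers had higher means with vehicle than in db/db for 9 of 9 at D7 (median log2 fold change 0.83, 1 called) and for 8 of 9 at D14 (median 0.78, 2 called), with 0 called after adjustment. Their sums were 524 to 754 with vehicle against 269.5 to 455.44 in db/db at D7 and 577 to 636 against 339 to 502 at D14, without overlap. The part of keratinocytes in the members' levels was not tested.

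The 2 vehicle D7 arrays differed from each other, and the calls rested on replicate 2. Igtp stood at 0.60 and 1.79 there, 2.12-fold above db/db (log2 fold change 1.09, SE 0.42, limma adjusted p = 0.309), and Iigp1 at -0.93 and -0.05, also 2.12-fold above (1.09, SE 0.38, adjusted p = 0.266). Gbp2 stood at -1.50 and -0.43, Irgm2 at -0.66 and 0.18, Irgm1 at 0.25 and 1.17, and Gbp5 at -2.75 and -1.73, with replicate 2 the higher each time. The dimmer probe of Iigp1, at -2.76 and -1.69, was called at D7 as well (1.83). Tgtp1 stood at -6.08 and -5.27 and Gbp3 at 0.41 and 0.80, again with replicate 2 higher, whereas Gbp7 was even, at -3.10 and -3.22. Without replicate 1 the count of called genes was 6, and without replicate 2 it was 0, as it was also without db/db replicate 1. The median difference from db/db was 0.402 within slide 1 and 1.20 within slide 2. The same vehicle array also stood apart for Ifng and its target Cxcl9, with -6.20 and -3.38 for Ifng and -2.52 and 0.88 for Cxcl9 in replicates 1 and 2, and the sums of T cell and natural killer cell markers on these arrays spanned 4.90 to 7.46. Their part in the result was not tested.

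At D14 the vehicle arrays were closer together. Tgtp1 stood at -4.29 and -4.42 and Iigp1 at -1.12 and -1.09, which gave the largest differences from db/db (log2 fold changes 0.96 and 0.93), both short of 2-fold, while the dimmer probe of Iigp1, at -2.49 and -2.83, was called (1.12). Irgm2 stood at -0.20 and -0.36, Irgm1 at 0.91 and 0.77, Igtp at 0.39 and 0.36, and Gbp3 at 0.87 and 0.70, all above the db/db arrays. Gbp2 stood at -1.60 and -1.34, which overlapped the db/db arrays. Gbp5 at -2.88 and -2.96 and Gbp7 at -2.73 and -2.68 lay above db/db, and Gbp6 at -2.39 and -1.96 overlapped it.

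Estrogen and vehicle were compared directly to see what estradiol benzoate added to the oil. limma called 0 of the 10 genes on either labelled day, with or without adjustment, where 8.99% and 0.984% of all probes were called in either direction without it and 2.56% and 0% with it. By an unadjusted p under 0.05 alone, 0 of the 10 passed on either day. The medians were 0.23 and 0.35 on the log2 scale, against 0.01 and -0.00 over all probes, with a range from -0.72 (Gbp6) to 0.59 (Tgtp1) at D7 and from 0.01 (Gbp7) to 0.67 (Irgm1) at D14. For Gbp2 the difference at D7 was 0.20 with a 95% interval of -0.63 to 1.02, and for Irgm2 it was 0.46 with an interval of -0.40 to 1.33, so that both intervals reach past 2-fold upwards. Estrogen arrays lay wholly above vehicle arrays for 4 genes (Gbp3, Gbp7, Irgm1 and Tgtp1) and wholly below for Gbp6 at D7, and wholly above for 5 genes at D14, arrangements found for 29.0%, 29.7% and 19.3% of all probes. Within slides, 9 of 10 genes were higher with estrogen on slide 1 (median 0.529) and 5 of 10 on slide 2 (median -0.0879) at D7, and 8 and 9 of 10 on slides 3 and 4 at D14 (medians 0.223 and 0.651).

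Treated db/db wounds were also set against WT. At D7, 3 of the 10 genes were called lower with estrogen than in WT (Gbp2, Gbp5 and Irgm2), where 4.49% of all probes were called lower, and the same 3 were called at D14, where 10.8% were. After adjustment, Gbp2 was the 1 gene called on both days, against 1.72% and 6.75% of all probes. Gbp2 with estrogen was 8.38-fold below WT at D7 (log2 fold change -3.07, SE 0.37, limma adjusted p = 0.00184) and 7.37-fold below at D14 (-2.88, adjusted p = 0.00173). Gbp5 was 2.88-fold (-1.53, limma adjusted p = 0.111) and 3.02-fold below (-1.59, adjusted p = 0.055), and Irgm2 was 2.21-fold (-1.15, limma adjusted p = 0.144) and 2.29-fold below (-1.19, adjusted p = 0.0751). The brighter probe of Gbp6 lay further below WT at D14 than Irgm2 did and was not called (-1.38, SE 0.99). Of the genes without a call, Irgm1, Gbp3 and Tgtp1 lay nearest to WT at D14, with Irgm1 at -0.37 and -0.04, Gbp3 at -0.32 and 0.19, and Tgtp1 at -0.89 and 0.03 for the respective labelled days, the last value turning to -0.11 with normexp background correction and -0.19 with slide as a block. The 95% intervals at D14 were -0.82 to 0.75 for Irgm1 and -0.66 to 0.72 for Tgtp1. The count at D7 was 1 without WT replicate 1, and that at D14 was 1 without WT replicate 2, 7 without WT replicate 1 and 5 without estrogen replicate 2.

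With vehicle, 5 of 10 genes were called lower than in WT at D7 (Gbp2, Gbp5, Gbp7, Irgm2 and Tgtp1), where 6.38% of all probes were, and 6 of 10 at D14 (Gbp2, Gbp5, Gbp7, Irgm2, Igtp and Iigp1), where 10.8% were. After adjustment 4 were called on each day, against 3.53% and 7.26% of all probes. Gbp2 was 9.60-fold below WT at D7 (log2 fold change -3.26, limma adjusted p = 0.00122) and 8.73-fold below at D14 (-3.13, adjusted p = 0.00108), and Irgm2 lay at -1.61 (limma adjusted p = 0.0339) and -1.73 (adjusted p = 0.0188). Without vehicle replicate 2 the count at D7 was 8, and without WT replicate 2 that at D14 was 3. The comparisons with WT share the WT arrays, and those with db/db share the db/db arrays, so they are set side by side here and not tested against each other.

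The order of the group means was WT, then estrogen, then vehicle, then db/db for 8 of the 10 genes on each labelled day. At D7, Gbp5 and Gbp6 had vehicle above estrogen. At D14, Gbp3 and Tgtp1 had estrogen above WT. Neighbours in this order did not differ past the thresholds between estrogen and vehicle for any gene, between vehicle and db/db for 8 genes at D7 and all 10 at D14, or between WT and estrogen for 7 genes on each day. The wide gaps were those between WT and db/db, and for Gbp2 those between WT and every db/db group.

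Differences between the labelled days in these contrasts were tested in the same fit, with 0 of the 10 genes called in each of the 4 tests, where 9.39%, 6.27%, 2.81% and 7.16% of all probes were called in either direction for db/db vs WT, estrogen vs db/db, vehicle vs db/db and estrogen vs vehicle. The lowest limma adjusted p over the members in these tests ran from 0.497 to 0.999. The largest such value for db/db vs WT was that of Gbp2, 0.82 (SE 0.52, limma adjusted p = 0.574), a smaller gap at D14. Quantile normalization gave 1 call for db/db vs WT, and 2 were called without WT D14 replicate 2.

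The members varied together across arrays, as a description that follows the group differences. Over the 45 pairs of members, Pearson's r across the 16 arrays had a median of 0.76 and ran from -0.19 to 0.97, and across the 12 db/db arrays it had a median of 0.65 and ran from -0.61 to 0.96. The arrays share slides and groups, and the 5 lowest values over the 16 arrays were those of pairs with Gbp6. Genes of similar levels were sought among 16900 others well above background on at least 8 arrays. The other interferon-induced GTPases listed below were left out of this ranking. Those that most resembled the mean standardized level of the members were Mgl2, a lectin of macrophages and dendritic cells (r = 0.94), Nlrp1a, an inflammasome sensor (0.92), and Tap2, a peptide transporter of antigen presentation (0.92). Mup21, Mrpl55 and Cyp2r1 followed (each 0.91).

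The signals upstream of the GTPases were read next. Of 14 interferons and inducing cytokines listed, 8 passed the filter in db/db vs WT at D7, and Ifng, which encodes interferon γ, was the 1 called. Ifng stood at -2.80 and -4.10 in WT and at -5.64 and -6.35 in db/db at D7, a 5.84-fold lower level (log2 fold change -2.55, SE 0.88, limma adjusted p = 0.0848). At D14 it stood at -4.24 and -4.07 in WT and at -6.79 and -8.66 in db/db, the last not well above background, and was called lower (-3.57, limma adjusted p = 0.0211). This value rested on the db/db arrays, at -2.63 (6.19-fold) without replicate 2 and -4.50 without replicate 1, with a call both times. At D7 the call of Ifng was lost without WT replicate 1 (-1.89) or db/db replicate 2 (-2.19), and the value was -3.20 without WT replicate 2. With estrogen it stood at -5.52 and -6.26 at D7 and at -6.31 and -5.86 at D14, and its differences from db/db of 0.10 and 1.64 were not called. At D7 the Ifng arrays with and without estrogen overlapped. The part of Ifng in the members' levels was not tested. Ifnk, an interferon of keratinocytes, was not well above background in db/db at D14, and WT was at least 2.18-fold higher (limma adjusted p = 0.0194), where such a bound sets the mean of the brighter group against the dimmest signal that counts as above background, or the dim probe's own signal if that is higher. Ifnb1 and Ifna4 were not well above background on both arrays of a group compared and were not tested.

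The receptors and their kinases showed no calls in this comparison. Of Ifngr1, Ifngr2, Ifnar1, Ifnar2, Jak1, Jak2 and Tyk2, 0 of 7 were called between db/db and WT, with log2 fold changes from 0.22 (Ifngr1) to 0.92 (Jak2) at D7. Jak2 was lower with estrogen than in db/db at D7 (-1.02, limma adjusted p = 0.0296). Among 9 transcription factors and coactivators of the response, 3 were called lower in db/db than in WT at D7 (Irf7, Nlrc5 and Ciita) and 5 at D14 (Stat2, Irf7, Nlrc5, Ciita and Batf2). Ciita, the coactivator of MHC class II genes, was 8.24-fold lower (-3.04, limma adjusted p = 0.0116) and 4.85-fold lower (-2.28, adjusted p = 0.0265). Irf1, which binds the response element in GTPase promoters, had differences of -0.55 and -0.85 that were not called. With estrogen against db/db at D7, 3 of the 9 were called higher, Irf7 8.11-fold (3.02, limma adjusted p = 0.00633), Ciita (2.08, adjusted p = 0.0749) and Batf2 (1.14, adjusted p = 0.137), while Irf1 (-0.17) was not. Leaving out single arrays ended the calls of Nlrc5 at D7 (-0.88 without WT replicate 1 and -0.62 without db/db replicate 1), of Irf7 (-1.26) and Batf2 (-0.74) at D14 without WT replicate 2, and of Batf2 at D14 without db/db replicate 2 (-0.96). In estrogen vs db/db at D7 it ended those of Jak2 (-0.70 without db/db replicate 1 and -0.96 without estrogen replicate 1), Ciita (1.64 without estrogen replicate 1) and Batf2 (1.03 to 1.15 without either estrogen array or db/db replicate 1).

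**Figure D3:**
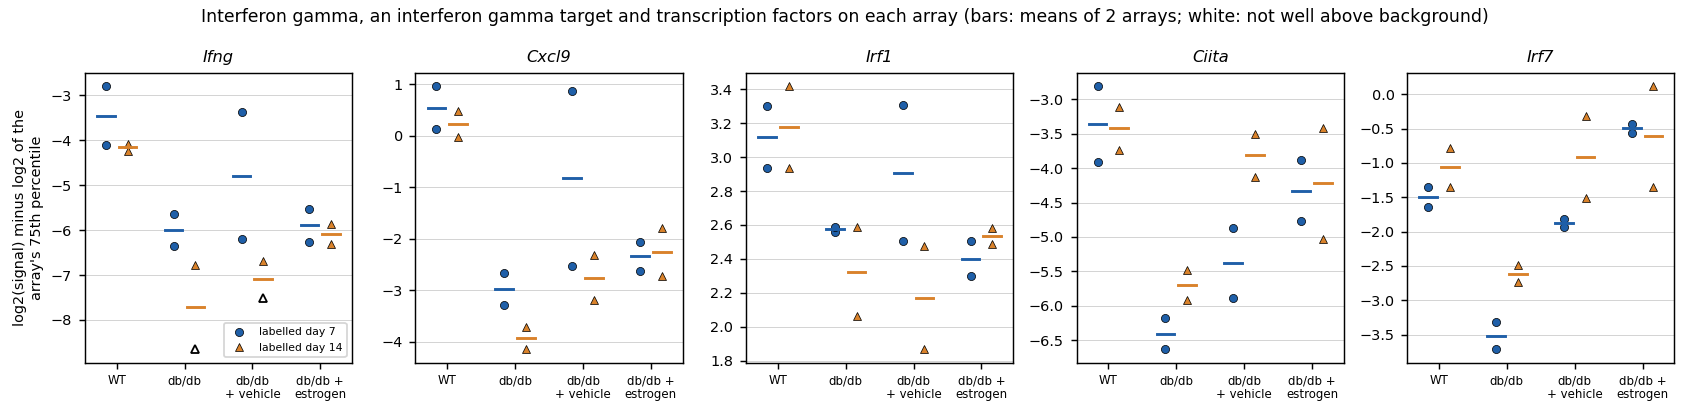
Levels (vertical axis, log2 of the signal minus log2 of the array's 75th percentile) of Ifng, its target Cxcl9 and transcription factors of the interferon response on each array, for the 4 groups and the labelled days; bars are means of 2 arrays and white points were not well above background. Vehicle labelled day 7 replicate 2 stands at -3.38 for Ifng and 0.88 for Cxcl9, above the other db/db arrays.

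Of 7 inhibitors of interferon signalling, Usp18, which binds the type I receptor, followed the members' direction, and Socs3, which responds to interleukin 6 type cytokines, ran against it. Usp18 was lower in db/db than in WT (log2 fold changes -2.43, limma adjusted p = 0.00331, and -1.17, adjusted p = 0.0442) and higher with estrogen at D7 (2.86, adjusted p = 0.00257). Its call at D14 was lost without db/db replicate 2 (-1.02). Socs3 was higher in db/db at D7 (1.48, limma adjusted p = 0.006) and 6.09-fold lower with estrogen (-2.61, adjusted p = 0.000761). Socs1, the main inhibitor of the interferon γ receptor, was not called in either comparison.

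Other interferon-induced GTPases were read from a list of 15, of which 11 had a probe, and most of their calls had the same directions. In db/db against WT, 8 of 11 were called lower at D7 (7 after adjustment, median log2 fold change -1.70) and 7 of 11 at D14 (7 after adjustment, median -1.19), and Gbp2b was called higher at D14. Gbp2b was not well above background in WT, so that db/db was at least 1.88-fold higher (limma adjusted p = 0.0392), a bound short of 2-fold, and the call was lost without WT replicate 1. Tgtp2, the near copy of Tgtp1, was 12.9-fold lower at D7 (-3.69, limma adjusted p = 0.0072). Gbp4 was 4.67-fold (-2.22, limma adjusted p = 0.0538) and 6.11-fold lower (-2.61, adjusted p = 0.0239). Without WT replicate 1, Gbp4 differed by -1.83 at D7 and was not called, and at D14 it differed by -3.33 without WT replicate 1 and -1.89 without WT replicate 2. Gbp8 was not well above background in db/db, and WT was at least 6.90-fold higher at D7 (limma adjusted p = 0.022) and at least 5.86-fold at D14 (adjusted p = 0.00197). With estrogen against db/db, 8 of 11 were called higher at D7 (4 after adjustment, median 1.64) and 5 of 10 at D14 (0 after adjustment, median 1.09). Those past adjustment were Gm4951, 6.49-fold higher (2.70, limma adjusted p = 0.0116), the giant GTPase Gvin1 (1.96, adjusted p = 0.00627), Gm5431 (1.19, adjusted p = 0.0249) and Gbp2b (1.75, adjusted p = 0.0291). Gbp4, lower in db/db, differed by 0.30 with estrogen, which was not called. Vehicle against db/db called 5 of 11 higher at D7 and 2 of 10 at D14, with 0 after adjustment on either day. With estrogen against vehicle, Gvin1 alone was called at D7 (1.23, limma adjusted p = 0.0583) and none at D14. The calls of Gm5431 against db/db and of Gvin1 against vehicle were lost without db/db replicate 1 (0.99) and without vehicle replicate 1 (0.86).

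Other interferon targets were counted by the interferon that is best known to induce them, from lists that overlap in practice. Of 17 interferon γ targets, 5 were called lower in db/db than in WT at D7 and 3 were called higher (median log2 fold change -0.60). The T cell attracting chemokines Cxcl9 (11.4-fold lower, -3.52, limma adjusted p = 0.0284) and Cxcl10 (8.58-fold lower, -3.10, adjusted p = 0.0243) were the largest of the former, with Ccl5 (-2.64, from -3.38 to -1.90 without single WT arrays) and Cd74 (-1.92) next. At D14, 3 of the 17 were called lower and 1 was called higher (median -0.47), and Cxcl9 was 17.9-fold lower (-4.17, limma adjusted p = 0.0113). The largest change in this list went upward on each labelled day, against the direction of the members. With estrogen, Cxcl9 differed from db/db by 0.63 and 1.68, which were not called, and Tap1, a transporter of antigen presentation, was higher at D7 (1.09, limma adjusted p = 0.015), with no call without db/db replicate 1 (0.95). Nos2, the inducible nitric oxide synthase, was called higher in db/db than in WT and fell by 4.93 on the log2 scale with estrogen at D7. Of 19 type I interferon targets, 15 were called lower in db/db than in WT at D7 (13 after adjustment, median -2.01) and 9 at D14 (5 after adjustment, median -1.07). With estrogen against db/db, 17 of 19 were called higher on each day (16 and 1 after adjustment, medians 2.65 and 1.79), led by Ifit1, 16.3-fold higher at D7 (4.03, limma adjusted p = 0.00246). Vehicle against db/db called 9 of these 19 higher at D7 and 5 at D14 (0 after adjustment on either day). With estrogen against vehicle, 15 of the 19 were called higher at D7 (6 after adjustment, median 1.48) and 9 at D14 (0 after adjustment, median 1.01). Of all probes tested, 4.66% and 0.507% were called higher in that comparison, and 0 of the 10 members were on either day. The median of the members in estrogen vs db/db at D7 was 0.96, and the difference between the lists was not tested. The lists share Irf7 and Usp18 with those above.

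**Figure D4:**
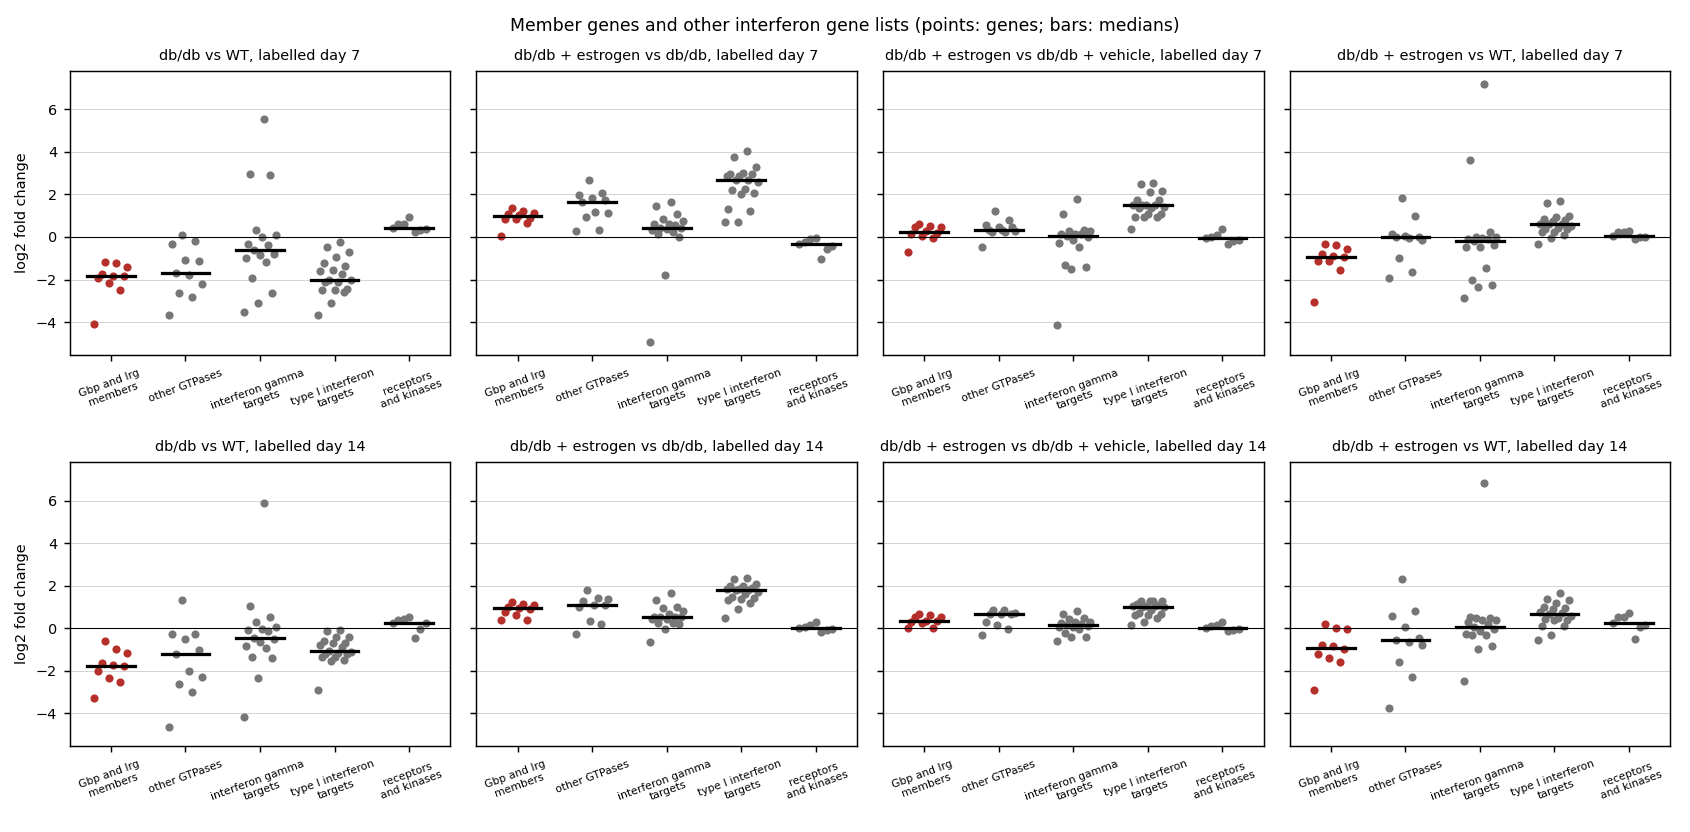
log2 fold changes of the 10 members (vertical axis) beside those of the other GTPases, the interferon γ and type I target lists (points are genes, bars are medians) and the interferon receptors and kinases, in the comparisons of db/db with WT and of estrogen with db/db, vehicle and WT (panels, labelled day 7 above and labelled day 14 below). In db/db vs WT for labelled day 7 the medians are -1.84 for the members and -2.01 for type I targets, and in estrogen vs db/db they are 0.96 and 2.65.

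Few genes that work with the GTPases in autophagy and inflammasomes were called. Of 12 such genes, 1 was called higher in db/db than in WT at D7, Atg16l1 of the autophagy conjugation complex (log2 fold change 1.31, limma adjusted p = 0.0155), and 0 at D14. This call was lost without db/db replicate 2 (0.88). Casp4, the caspase of the noncanonical inflammasome, was lower with estrogen than in db/db at D7 (-1.13, limma adjusted p = 0.00926). The inflammasome genes Nlrp3, Aim2, Casp1 and Gsdmd were not called in these comparisons.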

How the data were processed

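Total RNA from wound samples was read on 16 Agilent arrays in 1 colour. The authors deposited scanner files made with Feature Extraction 11.0.1.1, which hold for each spot an intensity with background subtracted and spatial trends removed, not scaled between arrays, with marks for spots well above background and the median pixel intensity of spot and background. The deposited series matrix holds a linear ratio that the authors made in GeneSpring, which equalled the intensity over the array's 75th percentile to a tolerance of 0.1% in 99.36% or more of each array's probes, and it was used as an alternative. The log2 values are not those of the authors' files but were computed here from the deposited intensity. Spots of a probe were averaged after outlier spots and controls had been left out. Of 39429 probes, 27427 (69.6%) were named through RefSeq accessions.

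limma 3.58.1 in R 4.3.3 fitted 8 group means to all probes, which left 8 residual degrees of freedom. Testing a probe required that 1 or both groups compared had the probe well above background in both replicates, and 6 comparisons on each labelled day and 4 differences between labelled days were made. A gene with several probes was represented by its brightest probe on average, and every probe is given. Named genes were all 10 members, then from lists of related genes those called, at most 4 per list and direction, and the ligands, receptors, factors and inhibitors by name. The members and lists were chosen with earlier results of these data known. 1 gene of these lists is not reported here. Sets were described by counts and medians and not tested. Fold changes of 20 genes in the study's tables for each day were looked for among the arrays with a tolerance of 1%, and 20 of 20 of each day were found on the arrays labelled with the other day and 0 on those of the same label. Whether labels or tables were exchanged is not known here. Alternatives were normexp background correction (offset 50, on median intensity), quantile normalization, the series matrix, other filters, other probe choices, a fit of 4 arrays, slide and replicate blocks (statmod 1.5.0) and leaving out each array. The scripts were tested on simulated data. Promoter windows came from RefSeq (GRCm38.p6), and no other coordinates are printed. Precision is limited by the 2 arrays per group.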

Additional observations from a re-analysis of the deposited data

How the results depend on the processing

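Counts of called genes, of 10, depended most on the adjustment and on single arrays. With the Benjamini-Hochberg adjusted p in place of the unadjusted one, estrogen vs db/db went from 5 to 0 (D7) and 3 to 0 (D14), vehicle vs db/db from 2 to 0 (D7) and estrogen vs WT from 3 to 1 on both days. For vehicle vs db/db, normexp and a fit of 4 arrays gave 1 in place of 2 at D7, and slide as a fixed block and the mean of all probes of a gene gave 1 in place of 0 at D14. Quantile normalization gave 1 in place of 0 for the day difference in db/db vs WT. Leaving out each array in turn gave counts of 3 to 5 and 1 to 5 for estrogen vs db/db (D7 and D14), 0 to 6 and 0 to 1 for vehicle vs db/db, 0 to 1 for estrogen vs vehicle D14, 1 to 4 and 1 to 7 for estrogen vs WT, 4 to 8 and 3 to 8 for vehicle vs WT, and 0 to 2 for the day differences of db/db vs WT and of vehicle vs db/db. Those of db/db vs WT stayed within 1.5 times of 9 and 7, a bound that does not mean they were unchanged. The causes were not tested. With a replicate block the counts were those without it (9 and 7 for db/db vs WT, 5 and 3 for estrogen vs db/db, 2 and 0 for vehicle vs db/db). Deviations of same-numbered arrays had correlations of both signs between groups, from -0.45 (db/db with estrogen, D14) to 0.39 (db/db with vehicle, D7) over 25909 probes. Same-numbered arrays also share a slide at D7, as do those of estrogen and vehicle at D14.

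Directions that turned were those of differences not called at first. With slide as a fixed block, values were -0.0049 (Gbp2) and -0.13 (Gbp6) for vehicle vs db/db D14, 0.12 (Irgm1) and -0.19 (Tgtp1) for estrogen vs WT D14, and -0.22 (Tgtp1) for vehicle vs WT D14. With normexp they were 0.00071 (Gbp5, estrogen vs vehicle D7), -0.0098 (Gbp6, estrogen vs db/db D7), -0.11 (Tgtp1, estrogen vs WT D14) and -0.19 (Tgtp1, vehicle vs WT D14), and with the mean of all probes 0.0075 (Irgm1, estrogen vs WT D14). Without single arrays, ranges crossed 0 for estrogen vs vehicle D7 in Gbp2 (-0.34 to 0.73), Gbp5 (-0.55 to 0.47), Igtp (-0.54 to 0.65) and Iigp1 (-0.28 to 0.59), and D14 in Gbp7 (-0.23 to 0.25), Iigp1 (-0.032 to 0.62) and Tgtp1 (-0.34 to 0.40). They did so against WT for D14 with estrogen in Gbp3 (-0.37 to 0.75), Gbp6 (-2.81 to 0.042), Irgm1 (-0.42 to 0.35) and Tgtp1 (-0.34 to 0.40) and with vehicle in Gbp3 (-0.73 to 0.40) and Tgtp1 (-0.11 to 0.11), and for D7 in Gbp6 in db/db (-2.57 to 0.23) and with vehicle (-1.11 to 0.27). Against db/db they did so for Gbp6 with estrogen D7 (-1.37 to 1.42), and with vehicle for Gbp6 (-0.65 to 2.14 and -0.16 to 0.27), Irgm1 D7 (-0.090 to 0.84) and Tgtp1 D7 (-0.15 to 0.66). Of all values of single genes under the alternatives, 1779 kept direction and side of the threshold, 63 lost the call, 38 gained it and 40 turned.

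Scaling moved the share of all calls that were higher in db/db than in WT from 40.3% to 52.2% (D7) and from 13.1% to 32.2% (D14) with quantile normalization, and from 65.3% to 53.5% in estrogen vs db/db D14, from 18.9% to 35.7% in estrogen vs WT D14, and from 38.0% to 50.5% and 19.0% to 37.3% in vehicle vs WT. Normexp moved it from 70.7% to 60.1% in vehicle vs db/db D14. The median of all probes in db/db vs WT moved from -0.12 to 0.07 (D14, quantile) and from -0.05 to -0.19 (D7, normexp), while under these scalings the median of the members stayed between -1.84 and -1.58 and between -1.76 and -1.65.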
